A study of Mus musculus with 6 samples.

Results

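Entry into mitosis is driven by the cyclin-dependent kinase Cdk1, and the 10 genes examined here encode Cdk1 itself, the cyclins that activate it (Ccna2, Ccnb1 and Ccnb2), the phosphatases that switch it on (Cdc25a, Cdc25b and Cdc25c), the kinases that hold it off (Wee1 and Pkmyt1) and the polo-like kinase Plk1. They were chosen by name, with earlier results of these data known, and all 10 were found among the 53801 genes of each count table. RNA was sequenced from 3 control and 3 Hdac4-knockdown libraries of MC3T3-E1, a mouse cell line described as pre-osteoblast. Cells of both groups were infected with a lentivirus that carries ZsGreen1 and a puromycin resistance gene and were selected with 5 μg/mL puromycin for 7 days. The control virus expressed a scrambled non-silencing RNA, and the knockdown virus expressed a short hairpin RNA against Hdac4, given in the labels as Hdac4-shRNA and in the study's account of its sequencing as Hdac4-shRNA3. The knockdown group holds 1 hairpin, so that an effect of Hdac4 loss and an effect of that hairpin cannot be told apart. The labels describe 3 independent RNA samples a group, and the study calls them biological replicates. Neither says whether they came from separate infections. The p-values therefore measure the spread between those samples, which may be technical if they came from a single infection.

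Libraries held 29096544 to 31651826 counts on genes. Levels are given as CPM, the count scaled to library size after TMM normalization. Hdac4, the targeted gene, was at 40.7, 40.2 and 39.9 CPM in control libraries and at 30.7, 28.8 and 29.5 CPM in knockdown libraries. Its knockdown mean was 73.6% of its control mean (log2 fold change -0.44, SE 0.0570), and 23.0% of all genes tested had a lower log2 fold change. Gm26720, on the opposite strand, overlaps Hdac4 exons over 3536 of 15813 bases (22.4%). Reads from that overlap cannot be assigned to either gene, since the library kit does not mark the strand. Of 7 osteoblast lineage markers, Runx2 was present in both groups, whereas the defining marker Alpl had 0 to 3 counts in every library. The summed level of the 7 was 3547 to 3581 CPM in control libraries and 12901 to 13514 CPM in knockdown libraries. That sum followed Col1a1, the collagen gene, which was at 338 ± 14.4 CPM in control and 11015 ± 326 CPM in knockdown libraries (SD, n = 3), whereas Spp1 fell from 3154 ± 30.9 to 2046 ± 36.1 CPM (log2 fold change -0.62). All 3 skeletal muscle markers (Myod1, Myog and Des) were detected, at a summed 801 to 842 CPM in control libraries and 108 to 124 CPM in knockdown libraries. The cell type given in the labels is therefore only partly borne out by its markers, and the groups also differ in these marker genes. Their part in the results below was not tested. Adipocyte markers, mostly Pparg, summed to 27.1 to 29.4 CPM in control libraries and 2.64 to 4.15 CPM in knockdown libraries, and macrophage, endothelial, epithelial, and glial and neural crest markers each summed to 3.26 CPM or less in every library.

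Cdk1 is inactive without a cyclin. Cyclin A2 accumulates from S phase onward and cyclins B1 and B2 in G2 phase, and each binds Cdk1. Wee1 and Pkmyt1 (also called Myt1) then phosphorylate neighbouring threonine and tyrosine residues of Cdk1 and keep the complex off, until the Cdc25 phosphatases remove these phosphates. Plk1 helps to trigger the switch by activating Cdc25 and promoting the destruction of Wee1, and active Cdk1 reinforces it. The genes of this circuit are mostly transcribed late in the cell cycle, so their RNA is abundant in dividing cell populations and scarce in resting ones.

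The site on which the opposing enzymes act can be seen in the coding sequence of Cdk1 itself. In Cdk1-201 (ENSMUST00000020099), the codons for the threonine and the tyrosine are numbers 14 and 15, in exon 3 of 8. The stretch shown covers the first 60 coding bases of that exon on the minus strand (GRCm38, chr10:69346172-69346231), with both codons in capitals.
Cdk1 coding bases 38 to 97: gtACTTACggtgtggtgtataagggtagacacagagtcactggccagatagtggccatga

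Promoters are shown because most of these genes changed together. RefSeq promoter sequences (GRCm38.p6) were matched for 6 of the 10 genes, Ccnb1, Ccnb2, Cdk1, Cdc25a, Cdc25b and Plk1, and not for Ccna2, Cdc25c, Wee1 and Pkmyt1. Each line gives 120 bases that end just before the outermost of the RefSeq and GENCODE start sites, read 5′ to 3′ on the strand of the gene. Capitals mark the CCAAT box, to which NF-Y binds (CCAAT, or ATTGG on the other strand), the cell cycle genes homology region or CHR (TTTGAA or TTCGAA) and an E2F word (TTTCCCGC, TTTCGCGC, TTTGCCGC or TTTGGCGC), each searched on both strands. None of the marked words overlap. The RefSeq starts of Ccnb1 and Cdk1 lie 84 and 26 bases inside the GENCODE starts, so that part of the windows counted next is transcribed in the GENCODE model. That part holds a Ccnb1 CCAAT box 67 to 63 bases before the RefSeq start and a Cdk1 CHR word 15 to 10 bases before it. Neither is shown.
Ccnb1, minus strand, chr13:100786571-100786690: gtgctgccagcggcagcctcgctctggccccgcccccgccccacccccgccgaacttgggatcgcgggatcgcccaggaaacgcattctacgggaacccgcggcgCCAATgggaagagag
Ccnb2, minus strand, chr9:70421555-70421674: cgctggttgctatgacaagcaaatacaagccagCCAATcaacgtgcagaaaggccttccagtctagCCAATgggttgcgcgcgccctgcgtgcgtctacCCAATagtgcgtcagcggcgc
Cdk1, minus strand, chr10:69352939-69353058: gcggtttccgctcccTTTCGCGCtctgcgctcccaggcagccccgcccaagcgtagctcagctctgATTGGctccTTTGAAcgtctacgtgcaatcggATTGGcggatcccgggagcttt
Plk1, plus strand, chr7:122159315-122159434: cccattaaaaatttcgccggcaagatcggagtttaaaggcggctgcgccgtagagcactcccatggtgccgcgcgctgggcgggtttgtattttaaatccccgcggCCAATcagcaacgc
Cdc25b, plus strand, chr2:131186828-131186947: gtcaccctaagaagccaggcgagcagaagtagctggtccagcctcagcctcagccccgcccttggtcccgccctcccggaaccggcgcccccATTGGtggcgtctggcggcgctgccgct
Cdc25a, plus strand, chr9:109875459-109875578: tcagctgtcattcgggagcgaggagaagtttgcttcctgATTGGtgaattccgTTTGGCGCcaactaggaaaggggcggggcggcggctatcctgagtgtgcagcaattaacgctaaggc

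Within the 250 bases before the RefSeq start, all 6 promoters held a CCAAT box, as did 33.9% of the 32851 promoters in the table. Within the nearest 100 bases all 6 still did, against 18.9% of all promoters. Ccnb1, Ccnb2 and Cdk1 had 2 or more CCAAT boxes in those 100 bases, as did 3.57% of all promoters. For Ccnb1 this includes the box in the part that is transcribed in the GENCODE model. A CHR word was found in the 250 bases of Ccnb2 and Cdk1 (17.1% of all promoters) and an E2F word in those of Cdk1 and Cdc25a (1.86% of all promoters). The CHR word of Ccnb2 lies 167 to 162 bases before the start, farther out than the bases printed. All these words are matches of letters, not measured binding sites.

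In the edgeR quasi-likelihood test, genes were called where the log2 fold change exceeded 0.05 in size and the p-value, adjusted by the Benjamini-Hochberg method over 14531 genes, was below 0.05. Of the 10 genes, 9 fell in Hdac4-knockdown libraries and 0 rose. The same rule called 37.1% of all genes tested lower and 38.0% higher, or 75.1% either way, and each of the 10 genes passed the filter on low counts. For 7 of the 10 the log2 fold change was below -1, against 10.6% of all genes tested. The median log2 fold change of the 10 was -1.43, and that of all genes tested was 0.014. The 10 were chosen with earlier results of these data known, and their difference from all genes was not tested. In RNA from whole cultures, fewer cells in G2 phase and mitosis and less of these RNAs in each such cell cannot be told apart.

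**Figure D1:**
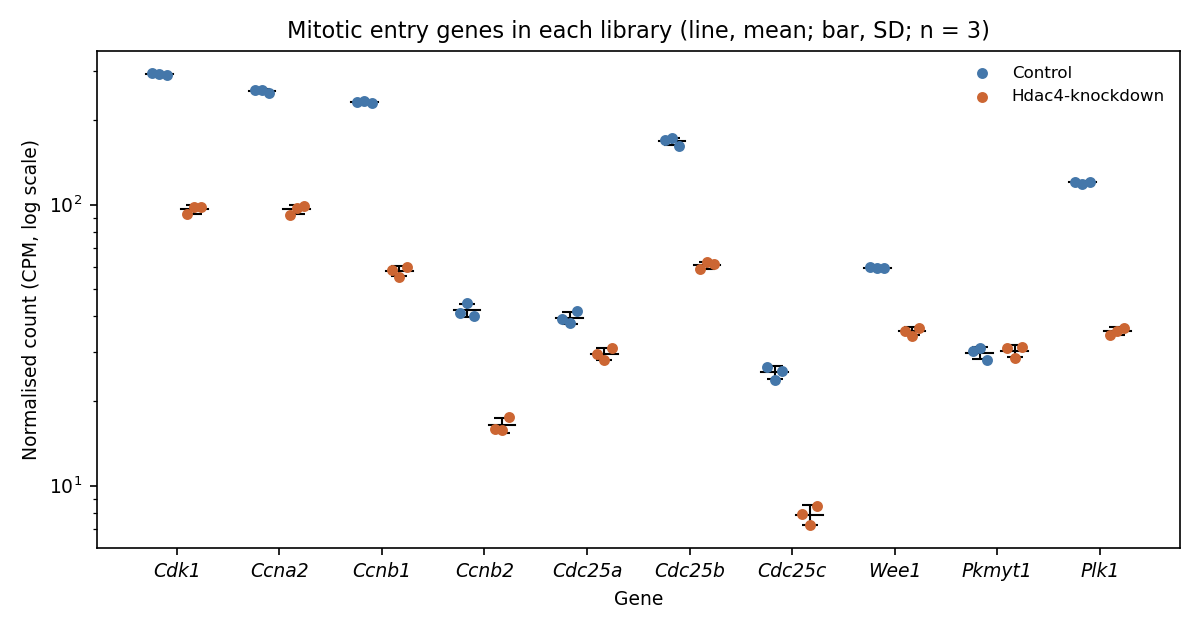
Normalised count (CPM, log scale) of the 10 mitotic entry genes in each of 3 control and 3 Hdac4-knockdown libraries, with the mean as a line and the SD as a bar. For 9 genes every knockdown library is below every control library, as for 38.0% of all genes tested. For Pkmyt1 the groups overlap between 28.5 and 30.9 CPM.

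Cdk1 (ENSMUSG00000019942, chromosome 10, 69335146 to 69352938) was at 293, 292 and 289.8 CPM in control libraries and at 92.3, 98.0 and 98.2 CPM in knockdown libraries. Every knockdown library was below every control library, as was the case for 38.0% of all genes tested. Its log2 fold change was -1.60 (SE 0.0418, edgeR adjusted p = 1.53e-17), and 6.32% of all genes tested had a lower one. No stretch of 50 bases in its transcripts was found in transcripts of another gene.

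The 3 cyclins fell by unequal amounts, and cyclin B1 had the lowest log2 fold change of the 10 genes. Ccna2 (ENSMUSG00000027715, chromosome 3, 36564865 to 36572150) was at 256, 256 and 250.3 CPM in control libraries and at 92.1, 97.2 and 99.3 CPM in knockdown libraries. Ccnb1 (ENSMUSG00000041431, chromosome 13, 100778650 to 100786570) was at 233, 233 and 229 CPM in control libraries and at 58.6, 55.3 and 60.2 CPM in knockdown libraries. The log2 fold change was -1.40 (SE 0.0427) for Ccna2 and -1.999 (SE 0.0450) for Ccnb1, so that 7.42% and 4.49% of all genes tested had lower values. Ccnb2 (ENSMUSG00000032218, chromosome 9, 70407692 to 70421547) was at 41.2, 44.8 and 40.3 CPM in control libraries and at 15.9, 15.7 and 17.6 CPM in knockdown libraries, or 38.9% of the control level (log2 fold change -1.36, SE 0.0687, edgeR adjusted p = 5.71e-13). For all 3 cyclins every knockdown library was below every control library, as for 38.0% of all genes tested.

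Part of the Ccnb1 RNA could not be counted with certainty. Of all 50-base stretches in its transcripts, 23.4% also occur in transcripts of other genes, most often in the pseudogene Ccnb1-ps (18.9%), and reads that align to several places were not counted on any gene. Ccnb1-ps itself received 63 counts over the 3 control libraries and 12 over the 3 knockdown libraries. Ccna2 shares 510 of its 4083 exon bases with Exosc9 on the opposite strand, which had 2957 counts over the control libraries and 4797 over the knockdown libraries. The related cyclin genes Ccna1 and Ccnb3 had 0 counts in every library, which allows up to 0.103 CPM in the shallowest one and covers counting error only.

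Among the activating phosphatases, all 3 fell, and the log2 fold change of Cdc25a was the smallest in size. Cdc25b (ENSMUSG00000027330, chromosome 2, 131186949 to 131198497), which acts at the onset of mitosis, was at 169, 172 and 162 CPM in control libraries and at 58.9, 62.3 and 61.5 CPM in knockdown libraries (log2 fold change -1.46, SE 0.0455, edgeR adjusted p = 2.34e-16). Cdc25c (ENSMUSG00000044201, chromosome 18, 34732993 to 34751533), which is phosphorylated by Plk1 and by Cdk1, was the least abundant of the 10 in knockdown libraries. It was at 26.5, 23.8 and 25.6 CPM in control libraries and at 7.95, 7.23 and 8.47 CPM in knockdown libraries, or 31.2% of the control level (log2 fold change -1.68, SE 0.0851, edgeR adjusted p = 5.99e-13). Of its 4919 exon bases, 623 are shared with Gm3550 on the opposite strand.

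Cdc25a (ENSMUSG00000032477, chromosome 9, 109875579 to 109893895), which also acts at the start of S phase, was at 39.1, 37.9 and 41.8 CPM in control libraries. In knockdown libraries it was at 29.3, 28.1 and 31.0 CPM, 74.5% of the control level, without overlap between the groups (log2 fold change -0.43, SE 0.0619, edgeR adjusted p = 4.27e-06). Of all genes tested, 23.8% had a lower log2 fold change than Cdc25a, whereas 5.90% had a lower one than Cdc25c and 7.12% than Cdc25b.

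Of the inhibitory kinases, Wee1 fell and Pkmyt1 did not pass the test. Wee1 (ENSMUSG00000031016, chromosome 7, 110122046 to 110143286), a nuclear kinase that phosphorylates the tyrosine, was at 59.8, 59.6 and 59.7 CPM in control libraries and at 35.6, 34.2 and 36.4 CPM in knockdown libraries. This was 59.3% of the control level, again without overlap (log2 fold change -0.75, SE 0.0521, edgeR adjusted p = 8.71e-11). Pkmyt1 (ENSMUSG00000023908, chromosome 17, 23726336 to 23736735), a membrane-bound kinase that phosphorylates both residues, was at 30.2, 30.9 and 28.0 CPM in control libraries and at 30.9, 28.5 and 31.1 CPM in knockdown libraries.

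The groups overlapped for Pkmyt1 alone among the 10 genes. Of all genes tested, 38.0% had every knockdown library below every control library and 38.8% had every one above. The exact permutation test, two-sided, gave p = 0.6, and its log2 fold change was 0.02 (SE 0.0642, edgeR adjusted p = 0.776). Its sign depends on the processing, with values from -0.03 to 0.11 over 14 alternatives, none of which passed the threshold. Of its 3643 exon bases, 319 are shared with Paqr4 on the opposite strand, which had 1399 counts over the control libraries and 2983 over the knockdown libraries. Reads in the shared part cannot be assigned to either gene, since the library kit does not mark the strand. The third gene of this family, Wee2, which is known from oocytes, had 0 to 2 counts per library.

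Plk1 (ENSMUSG00000030867, chromosome 7, 122159439 to 122169873) was at 121, 119 and 120.5 CPM in control libraries and at 34.3, 35.5 and 36.5 CPM in knockdown libraries. This was 29.5% of the control level, and the log2 fold change was -1.76 (SE 0.0477, edgeR adjusted p = 2.71e-17). After Ccnb1 it had the second lowest log2 fold change of the 10. Of all 50-base stretches in Plk1 transcripts, 10.4% also occur in transcripts of other genes. A processed pseudogene, Plk-ps1, holds 6.56% of them and had 114 counts over the control libraries and 191 over the knockdown libraries. Of the 2199 exon bases of Plk1, 156 are shared with Gm44985 on the opposite strand, which had 23 and 13 counts.

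**Figure D2:**
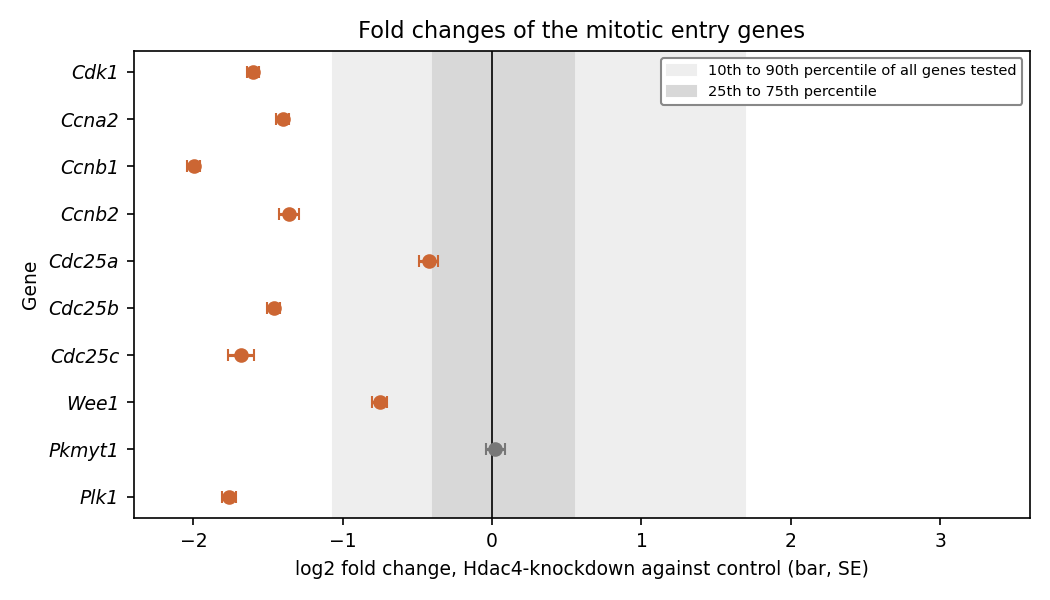
The log2 fold change of each gene in Hdac4-knockdown against control libraries, with its SE as a bar. The dark band spans the middle 50% of all genes tested (-0.40 to 0.55) and the light band the 10th to the 90th percentile (-1.07 to 1.69), and 7 of the 10 genes lie to the left of both.

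The genes were next compared with each other per kilobase of annotated exon, since longer transcripts collect more reads. In control libraries the order of levels was Ccna2 (62.2 ± 0.817 CPM per kilobase, SD, n = 3), Cdk1 (59.1 ± 0.334), Ccnb1 (55.0 ± 0.510), Plk1 (54.6 ± 0.470), Cdc25b (45.02 ± 1.41), Ccnb2 (27.5 ± 1.55), Wee1 (17.5 ± 0.0343), Pkmyt1 (8.15 ± 0.417), Cdc25c (5.14 ± 0.283) and Cdc25a (4.94 ± 0.251). Ccnb1 and Plk1, and likewise Cdc25c and Cdc25a, did not differ beyond their spread. In knockdown libraries the order was Ccna2 (23.6 ± 0.900 CPM per kilobase), Cdk1 (19.5 ± 0.678), Cdc25b (16.3 ± 0.476), Plk1 (16.1 ± 0.513), Ccnb1 (13.8 ± 0.589), Ccnb2 (10.7 ± 0.670), Wee1 (10.4 ± 0.334), Pkmyt1 (8.28 ± 0.391), Cdc25a (3.68 ± 0.180) and Cdc25c (1.60 ± 0.127). Here the neighbours Cdc25b and Plk1, and Ccnb2 and Wee1, did not differ beyond their spread.

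Ccnb1 moved from place 3 to place 5, and Cdc25c from place 9 to place 10. With the length of the principal transcript in place of all annotated exons, an alternative chosen after seeing the data, Ccnb1 was in place 1 in control and place 2 in knockdown libraries. With that length Pkmyt1 was in place 6 rather than 8 in knockdown libraries, ahead of Ccnb2 and Wee1. The order of the members therefore depends on the length used, and the fold changes do not.

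The summed level of the 3 cyclins was 145 ± 2.66 CPM per kilobase in control libraries and 48.0 ± 1.77 in knockdown libraries (SD, n = 3). The share of Ccnb1 in that sum was 38.0% ± 0.376 in control libraries and 28.7% ± 0.953 in knockdown libraries, and that of Ccna2 was 43.0% ± 0.388 and 49.1% ± 1.20. The summed level of the Cdc25 genes was 55.1 ± 1.06 and 21.6 ± 0.509 CPM per kilobase, and Cdc25b made up most of it in both groups (81.7% ± 1.11 and 75.6% ± 1.29). The Cdc25a share was 8.96% ± 0.630 in control libraries and 17.01% ± 0.734 in knockdown libraries. Wee1 and Pkmyt1 together were at 25.6 ± 0.399 CPM per kilobase in control libraries and 18.6 ± 0.718 in knockdown libraries. None of these shares overlapped between the groups. Among all genes tested, the levels of 38.0% lay wholly lower in knockdown libraries and those of 38.8% wholly higher. The size of a share depends on the length used, and with principal transcripts the Cdc25a share was 13.9% ± 0.867 in control and 25.5% ± 0.850 in knockdown libraries, and Ccnb1 (45.1% ± 0.323) was ahead of Ccna2 (41.5% ± 0.266) in control libraries. In knockdown libraries Pkmyt1 made up 58.8% ± 0.458 of the inhibitory kinases with principal transcripts, and 44.4% ± 0.467 with all annotated exons. The direction of each share's difference between the groups was the same with either length.

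**Figure D3:**
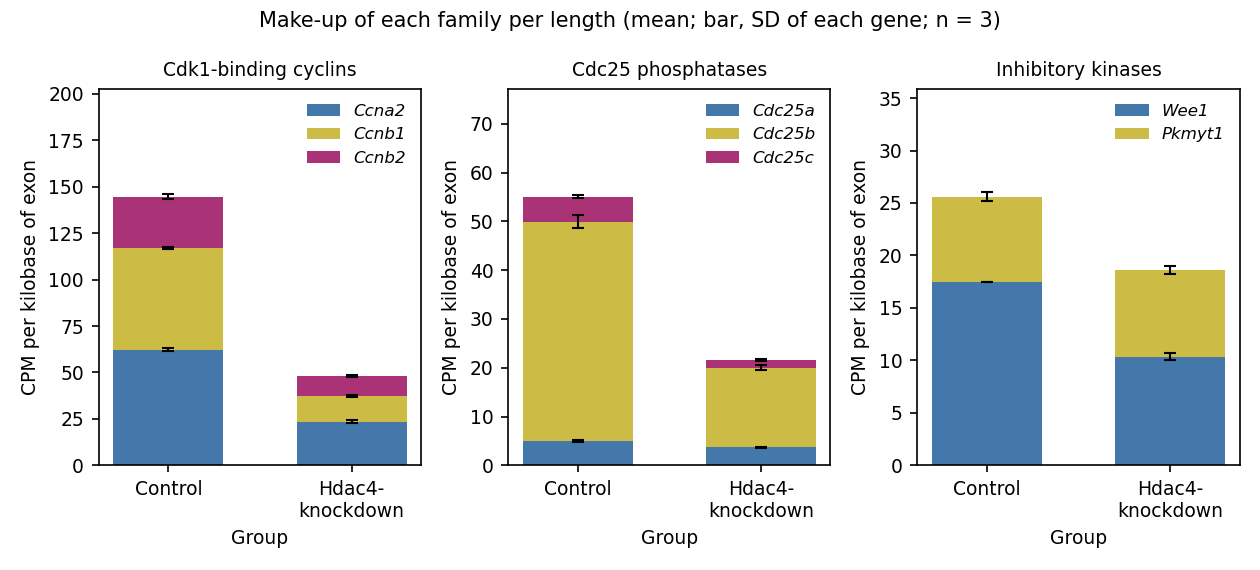
Stacked mean levels in CPM per kilobase of exon (n = 3; bars give the SD of each gene) for the cyclins, the Cdc25 phosphatases and the inhibitory kinases in control and Hdac4-knockdown libraries. The cyclin total is 145 in control and 48.0 in knockdown libraries, whereas the total of the inhibitory kinases is 25.6 and 18.6.

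Ratios of members within a library do not depend on how libraries are scaled, and 10 of them were compared between the groups. For each of the 10, the knockdown libraries lay outside the control libraries (two-sided exact permutation test, p = 0.1 and adjusted p = 0.1, the smallest that 3 libraries against 3 allow). No ratio could therefore pass 0.05, and each is given with its spread. Separation of the groups is common in these data. Of all genes tested, 38.0% had every knockdown library below every control library and 38.8% had every one above. The ratio of Ccnb1 to Cdk1 per exon base was 0.929, 0.935 and 0.926 in control libraries and 0.743, 0.660 and 0.717 in knockdown libraries, a log2 difference of -0.40 (SE 0.0505). The ratio of Ccna2 to Cdk1 differed in the other direction, at 1.06, 1.06 and 1.04 in control libraries and 1.21, 1.20 and 1.22 in knockdown libraries. The ratio of Ccnb2 to Cdk1 was also higher in knockdown libraries (log2 difference 0.24, SE 0.0635), and that of Ccnb1 to Ccnb2 was lower (-0.64, SE 0.0515). The ratio of Plk1 to Cdk1 was lower by a log2 difference of -0.16 (SE 0.0150), and the Cdc25 genes were not set against Cdk1.

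Of the 10 ratios, those of the inhibitory kinases to Cdk1 were among the furthest apart. The ratio of Wee1 to Cdk1 was 0.295, 0.294 and 0.298 in control libraries and 0.557, 0.503 and 0.535 in knockdown libraries, 1.80 times as high. The ratio of Pkmyt1 to Cdk1 was 0.140, 0.143 and 0.131 in control libraries and 0.453, 0.394 and 0.428 in knockdown libraries, 3.08 times as high. The log2 fold change was 0.02 for Pkmyt1 and -1.60 for Cdk1, so this ratio restates the fall of Cdk1. Any gene that fell less than Cdk1 gives a higher ratio to it. Cdc25a, an activator, fell less (-0.43) than Wee1 (-0.75), and its ratio to Cdk1 was not among the 10. The higher ratios therefore do not show a shift particular to the inhibitory kinases. Between activators and inhibitor, the ratio of Cdc25b to Wee1 was 2.60, 2.65 and 2.49 in control libraries and 1.51, 1.67 and 1.55 in knockdown libraries. The ratio of Cdc25c to Wee1 was also lower in knockdown libraries (log2 difference -0.93, SE 0.0597, against -0.71, SE 0.0509, for Cdc25b), whereas that of Cdc25a to Wee1 was higher (0.33, SE 0.0442).

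**Figure D4:**
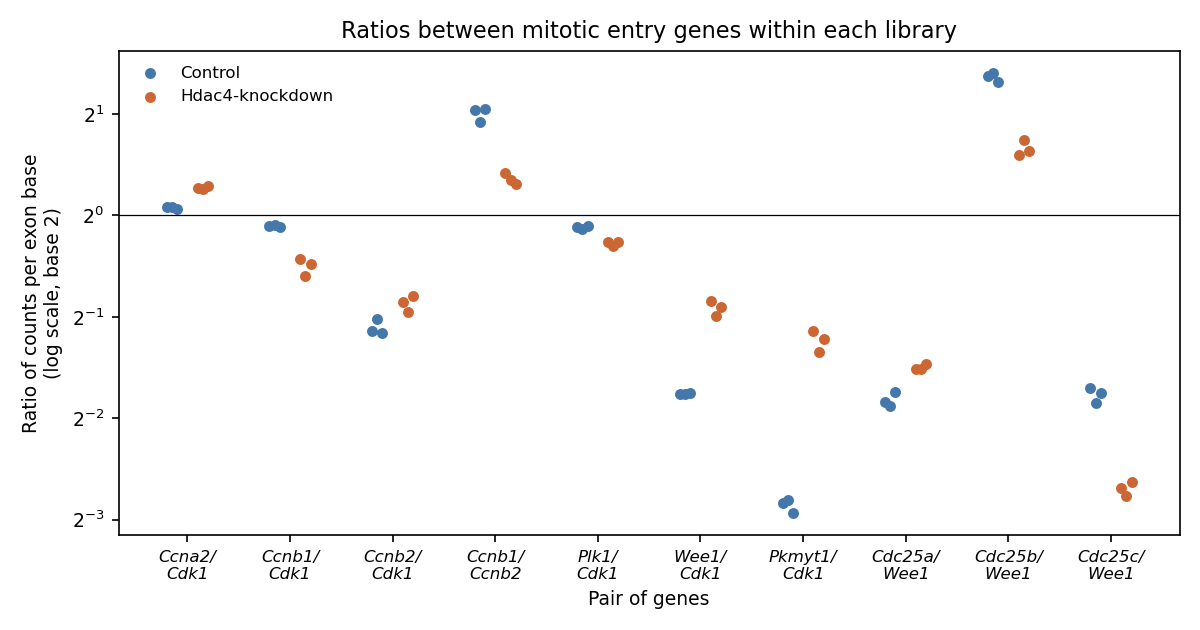
Ratio of counts per exon base (log scale, base 2) for 10 pairs of genes in each control and Hdac4-knockdown library. In knockdown libraries the points for Wee1/Cdk1 and Pkmyt1/Cdk1 lie above those of control libraries by factors of 1.80 and 3.08, and those for Cdc25b/Wee1 and Cdc25c/Wee1 lie below.

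Genes that act with or on these 10 were taken from lists and described in the same fit. By the same rule, 37.1% of all genes tested were called lower and 38.0% higher. The counts of each list below stand beside these shares, and no list was tested as a set. Among 9 partners and activators of Cdk1, 7 were tested, of which 4 fell, 1 rose and 2 did not pass, and the list's median log2 fold change was -0.18. The small Cdk-binding subunits Cks2 (log2 fold change -1.63) and Cks1b (-0.90) both fell. Ccnh, which encodes the cyclin of the Cdk-activating kinase, rose from 41.5 ± 0.549 to 50.6 ± 2.55 CPM (SD, n = 3; log2 fold change 0.29, edgeR adjusted p = 0.000108).

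Upstream of the switch, 15 of 16 genes were tested, of which 12 fell, 2 rose and 1 did not pass, with a median of -0.58. Aurka, the kinase that activates Plk1, was at 102 ± 2.99 CPM in control libraries and 29.1 ± 1.85 CPM in knockdown libraries (SD, n = 3; log2 fold change -1.80, the lowest of this list). Its cofactor Bora (-1.21), the kinase Mastl (-1.21), which restrains the phosphatase that opposes Cdk1, and the checkpoint kinase Chek1 (-0.58) fell as well. Btrc, which encodes a subunit of the ubiquitin ligase that recognises phosphorylated Wee1, had the highest log2 fold change of this list, from 25.7 ± 1.96 to 48.2 ± 0.402 CPM (0.91, edgeR adjusted p = 7.23e-11). Its paralogue Fbxw11, which was more abundant, fell from 145 ± 3.41 to 103 ± 4.49 CPM (-0.50, edgeR adjusted p = 5.70e-09).

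Of 15 genes for factors that control late cell cycle transcription, 12 fell, 1 rose and 2 did not pass, with a median of -0.46. Foxm1, an activator of cyclin B and Plk1 genes, had the lowest log2 fold change (-1.15, SE 0.0452) and was at 165 ± 6.15 CPM in control and 74.0 ± 1.91 CPM in knockdown libraries. Mybl2, which joins the same promoters, fell less (-0.69, SE 0.0540). The genes for the 3 subunits of the CCAAT-binding factor NF-Y did not move one way, since Nfya rose (0.21, edgeR adjusted p = 0.00412) and Nfyb (-0.26) and Nfyc (-0.54) fell.

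In the list for cyclin destruction, 8 of 10 genes fell, 1 rose and 1 did not pass, with a median of -0.78. Ube2c, which encodes the ubiquitin-conjugating enzyme of the anaphase-promoting complex, was at 204 ± 5.52 CPM in control and 44.5 ± 1.41 CPM in knockdown libraries (log2 fold change -2.20, SE 0.0461), lower than any of the 10 mitotic entry genes. The activator Cdc20 (-1.64) and the inhibitor Fbxo5 (-1.001) fell, and of the core subunits in the list, Anapc2 rose (0.29, edgeR adjusted p = 8.09e-06), Anapc11 (-0.56), Cdc27 (-0.60) and Cdc16 (-0.25) fell, and Anapc10 did not pass the test. As a comparison from S phase, 9 of 10 genes fell and 1 did not pass, with a median of -0.38. Their log2 fold changes ran from -0.93 for Gmnn, an inhibitor of replication licensing, to 0.07 for its target Cdt1 (edgeR adjusted p = 0.179). None of these 10 was below -1, against 7 of the 10 mitotic entry genes and 10.6% of all genes tested. The difference between the lists was not tested.

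**Figure D5:**
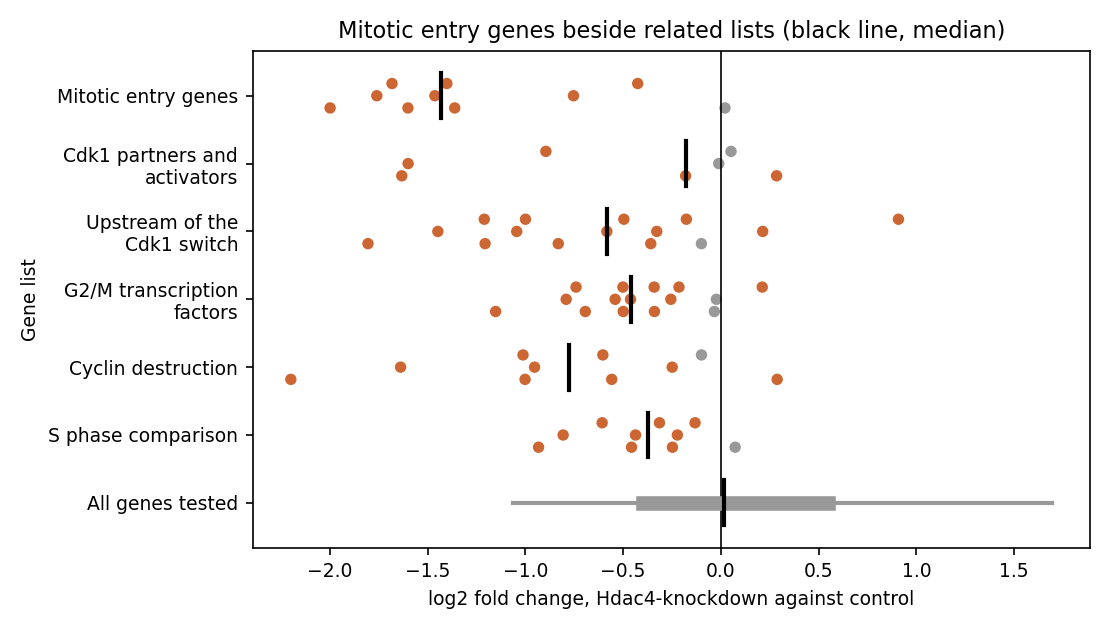
The log2 fold change of each tested gene in 6 lists (orange, passed the test; grey, did not), with the median of each list as a black line and, in the lowest row, the 10th to 90th percentile (thin) and the middle 50% (thick) of all genes tested. The medians are -1.43 for the mitotic entry genes, -0.18, -0.58, -0.46, -0.78 and -0.38 for the lists below them, and 0.014 for all genes.

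Genes most like Cdk1 were sought by the Euclidean distance between log2 CPM profiles over the 6 libraries, each centred on its mean, among 9273 genes with a mean of at least 10 CPM. The nearest 5 were Ccnf (distance 0.0322), Sema7a (0.0394), Knstrn (0.0718), Cenpa (0.0811) and Cdc20 (0.0908), with log2 fold changes from -1.64 to -1.58. Over 6 libraries in 2 groups this measure mainly ranks genes by the size of their difference between the groups. Of the members, Cdc25b was nearest at rank 39, Plk1 was at rank 48 and Pkmyt1 at rank 5292.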

How the data were processed

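RNA from 3 control and 3 Hdac4-knockdown samples of MC3T3-E1 cells was sequenced after poly-A selection with an unstranded kit. The authors deposited raw counts per Ensembl gene for each library; their processing notes name mm10, FastQC, STAR 2.7.3a and HTSeq 0.12.4, and the annotation release is not given in the sources used here. The 5 summary lines of each table, which hold 14.3% to 15.0% of the reads listed, were left out. Symbols, positions and exon lengths came from GENCODE M21 (GRCm38), which held 53706 of the 53801 genes. Counts were compared with edgeR 4.0.16 (TMM, filterByExpr, quasi-likelihood F test, Benjamini-Hochberg adjustment) in R 4.3.3, and a gene was called where its log2 fold change exceeded 0.05 in size at an adjusted p-value below 0.05. The test was run on simulated data with changes planted in 122 of 13660 genes tested, of which it recovered 95.1%. In the real data 75.1% of genes were called, so the simulation does not check normalization under such wide change. DESeq2 1.42.0 and limma 3.58.1 served as alternatives, beside other normalizations, filters, thresholds, a replicate block and leaving out each library. Replicates of 1 group differed by more than sampling noise (chi-square per degree of freedom 3.23 to 8.36). Single genes and ratios were compared by two-sided exact permutation tests. Promoter and coding sequences came from RefSeq (GRCm38.p6) and GENCODE M21.

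Genes named are the 10 members, Hdac4, 10 regulators fixed by name, the lowest and highest log2 fold change in each list, and the 5 genes nearest to Cdk1. Beside these, cell type markers, genes that share sequence with a member or with Hdac4, and untested relatives of members are named where a value needs them. Cdk7, Nfyb, Nfyc, Fbxw11, Anapc10, Anapc11, Cdc16 and Cdc27 were chosen after their values were seen. The members and lists were chosen with earlier results of these data known.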

Additional observations from a re-analysis of the deposited data

How the results depend on the processing

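The 9 members called lower remained called under each of the 14 alternative normalizations, filters, tools, designs and omissions of a library, and their log2 fold changes kept their sign. Leaving out each library in turn gave 9 members called lower and 0 called higher. Pkmyt1 changed sign without a filter beyond 1 count (-0.0078) and without control replicate 3 (-0.0326, the lowest of the values that leave out 1 library, of which 0.062, without knockdown replicate 2, was the highest), and passed the threshold under none of them. With a log2 fold change threshold of 0.5, 2879 genes were called lower and 3579 higher, and with a threshold of 1, 1543 and 2397. These thresholds left 8 and 7 of the members called lower. Upper quartile normalization raised the Cdk1 partners called higher from 1 to 2, by adding Cdk7, lowered those called lower from 4 to 3 (also 3 with library size alone) and moved their median log2 fold change from -0.18 to -0.09. It also lowered the upstream genes called lower from 12 to 11 and the S phase genes from 9 to 8 (also 8 with library size alone). In the S phase list, Cdt1 was called higher (1 gene in place of 0) with library size alone, with upper quartile normalization and with at least 10 counts in every library. The replicate block gave 9 members called lower, 5441 genes called lower and 5523 called higher, and changed no member's call. Deviations of same-numbered libraries from their group means correlated at -0.011, 0.027 and 0.017 across genes, so the numbers were not taken as pairs. Leaving out each library in turn gave 5165 to 5402 genes called lower and 5370 to 5519 called higher. Within 100 bases of the start, a CHR word was found in 1 member promoter, Cdk1 (6.13% of all promoters). An E2F word was found there in 1, Cdc25a (0.846% of all promoters). With 3 libraries a group, exact permutation tests cannot pass 0.05.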
